A study of Homo sapiens with 4 samples.

Results

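The genes that make cholesterol and fatty acids, with those that control, move and export their products, were examined in 4 established human lines of acute lymphoblastic leukaemia from B-cell precursors. A list of 39 genes was set by gene symbol and function, with earlier results of these data known, and 36 of them had a probe set that carries their symbol alone, of 18377 such genes on the array. FDFT1 and NR1H2 had no probe set with their symbol, and HSD17B7 had only 1 shared with its pseudogene HSD17B7P2, so that none of the 3 was measured. A gene was represented by its probe set with the highest mean, and each of the 36 had 1 probe set of its own. FDPS was also listed on 2 further probe sets together with the pseudogene FDPSP2, which were not used.

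In RS4;11 and SEM, the translocation lines, t(4;11) has fused the KMT2A (MLL) gene with AFF1. NALM6 and REH have no such fusion and serve as comparison lines. All 4 were grown in RPMI medium with 10% fetal bovine serum, below full density, and total RNA of each was hybridised to 1 Affymetrix whole-transcript array. The design sets MLL-rearranged cells against cells without that rearrangement. Each line stands for 1 leukaemia with its own further lesions, since REH is known to carry the ETV6-RUNX1 fusion and NALM6 a DUX4 rearrangement, so that the translocation and any other difference between these pairs of lines cannot be told apart. The serum supplies cholesterol and lipids to every culture, and a change in a fraction of the cells and a smaller change in all of them cannot be told apart in bulk RNA.

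Cells make sterols from acetyl-CoA through mevalonate and isoprenoid units to squalene, which is then oxidised, cyclised and trimmed to cholesterol, while acetyl-CoA carboxylase, fatty acid synthase, elongases and desaturases build fatty acids. Both branches are switched on by the sterol regulatory element-binding proteins (SREBPs), membrane-bound transcription factors that SCAP escorts to the Golgi for cleavage when sterols run low and that INSIG proteins hold back when sterols are plentiful. Sterol in excess is stored as ester or exported by ABC transporters, whose genes are targets of the liver X receptors (LXRs). The 36 genes fell into 8 of the mevalonate and isoprenoid steps, 7 of the steps after squalene, 5 of SREBP control, 8 of uptake, transport, storage and efflux with the LXRs, and 8 of fatty acid synthesis.

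Expression is given as the deposited log2 value, on which a difference of 1 is 2-fold. Array medians over all probe sets lay between 6.40 and 6.46, and their 25th percentiles between 4.97 and 5.02. Of the 36 genes, 34 reached the median of all gene values (6.75) in at least 1 line, while PMVK and NR1H3 did not and are called dim. Background shares are given for all genes and for the 10259 that were not dim. The labelled cell type was checked with 8 measured B-cell precursor markers, of which PAX5 lay between 11.61 and 11.90, CD22 between 11.10 and 11.65 and CD79A between 11.05 and 12.35 in the 4 lines. The other 5 varied between lines. CD24 was at 6.33 in SEM and from 10.50 to 12.49 elsewhere, CD79B at 7.63 in SEM and from 9.99 to 11.02 elsewhere, and IGLL1 at 8.66 in SEM and from 10.70 to 10.78 elsewhere. VPREB1 was at 5.51 in REH, 7.57 in SEM and 10.86 and 11.35 in NALM6 and RS4;11, and RAG1 ran from 6.33 in SEM to 8.97 in REH. SEM was thus the lowest line in 6 of the 8. Of 5 T-cell genes, CD3D, CD3E, CD3G and CD8A lay between 4.54 and 5.07, and TRAT1 was at 6.64 in REH and from 4.78 to 5.20 elsewhere. The 6 hepatocyte and adipocyte genes lay at no more than 5.68. Of 6 myeloid genes, LYZ was at 8.27 in RS4;11 and 8.50 in SEM, against 9.65 in NALM6 and 5.80 in REH, and CSF1R reached 7.69 in SEM and MPO 7.57 in REH, and their part in the results was not tested.

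As a set the lipid genes lay higher in the translocation lines. The group difference, the mean of RS4;11 and SEM minus that of NALM6 and REH, was above 0 in 30 of 36 genes, with a median of 0.43, against 0.01 over all genes. Of all genes 52.9% were above 0, and of genes not dim 50.9%. Without NALM6 22 of the 36 were above 0, against 29 to 32 without each of the other lines, and the median was 0.27 without SEM and 0.72 without REH. By sub-pathway the median was 0.63 for the mevalonate genes, 0.23 for the steps after squalene, 0.35 for SREBP control, -0.02 for transport and efflux and 0.53 for fatty acid synthesis. Among the listed genes, those of synthesis were thus higher on balance in both branches, though the fatty acid median was 0.29 without SEM. Transport and efflux genes were divided, with 4 above 0 and 4 below. No gene of the set passed limma's threshold of an adjusted p of 0.05 (0.0218% of all genes passed, 0.039% of genes not dim), and the smallest adjusted p was 0.164, for MSMO1. At an unadjusted limma p under 0.05, 11 of the 36 were higher (4.6% of all genes, 7.01% of genes not dim) and 0 were lower (4.79% of all genes, 7.72% of genes not dim).

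Without SEM 7 genes were higher at that p (3.56% of all genes in the same setting), against 8 to 14 without each of the other lines. Without NALM6 3 of 36 were lower, a share near the 7.88% of all genes in that setting, and without REH 1 was (5.42%). Of the 11, HMGCS1, MVK, MSMO1, SREBF2 and FASN stayed under that p in every alternative and with each line left out, and MVD, IDI1 and SC5D passed over it in some settings that kept all lines. The groups did not overlap in 16 genes (42.8% of all genes, 46.7% of genes not dim), of which 15 were higher in both translocation lines (23.0% of all genes, 23.6% of genes not dim) and 1, ABCG1, was lower in both (19.8% of all genes, 23.2% of genes not dim). In HMGCS1 and MSMO1 the groups were at least 2-fold apart upward (0.963% of all genes, 1.65% of genes not dim), and in ABCG1 downward (0.876% of all genes, 1.57% of genes not dim). Single genes were given no permutation p, since the smallest exact two-sided value that 2 lines against 2 allow is 0.33.

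**Figure D1:**
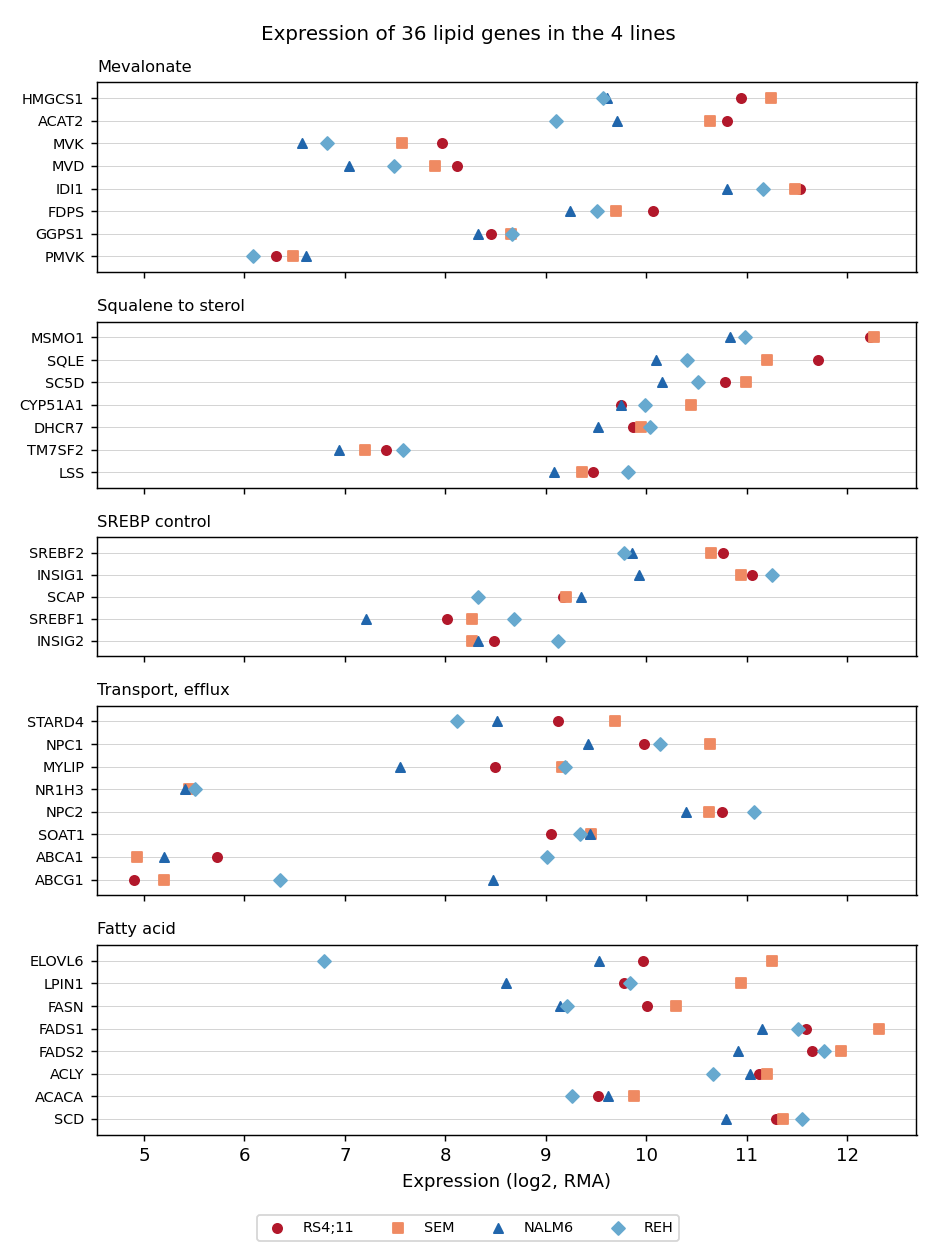
Expression (log2, horizontal axis) of the 36 measured genes by sub-pathway, 1 point per line: RS4;11 (circle) and SEM (square) carry t(4;11), NALM6 (triangle) and REH (diamond) do not. In HMGCS1, MSMO1 and SREBF2 both translocation points lie to the right of both comparison points, while ABCA1 is set apart by REH at 9.01 and ELOVL6 by REH at 6.79; levels of different genes are not comparable, since probe sets differ in brightness.

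Among the SREBP control genes, SREBF2 separated the groups, with both translocation lines higher, and the other 4 did not. Of all genes 23.0% were higher in both translocation lines, and of genes not dim 23.6%, so that 1 of 5 was near these shares. In either direction the groups did not overlap in 42.8% of all genes and 46.7% of genes not dim. SREBF2 encodes SREBP-2, the form that acts mainly on sterol synthesis genes, and was at 10.76 in RS4;11 and 10.65 in SEM, against 9.86 in NALM6 and 9.78 in REH. Lines of one group lay within 0.11 of each other, and the 2 groups were 0.89 apart (SE 0.10, 1.85-fold, limma adjusted p = 0.244). SREBF1, which encodes the form that acts mainly on fatty acid genes, followed another order. It was at 8.01 in RS4;11 and 8.27 in SEM, against 7.21 in NALM6 and 8.68 in REH, so that the comparison lines enclosed both translocation lines. REH exceeded NALM6 2.79-fold in SREBF1, and the group difference of 0.19 (SE 0.59) became -0.55 without NALM6.

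INSIG1, which retains the SCAP-SREBP complex in the endoplasmic reticulum and is itself a known SREBP target, likewise had NALM6 as the lowest line and REH as the highest. Its level was 11.06 in RS4;11 and 10.94 in SEM, against 9.92 in NALM6 and 11.25 in REH. NALM6 was low and the other 3 lines lay within 0.30 of each other, which left a group difference of 0.41 (SE 0.52) that was -0.25 without NALM6. Its paralogue INSIG2 was at 8.48, 8.26 and 8.33 in RS4;11, SEM and NALM6 and at 9.13 in REH, the 1 line that stood out (difference -0.35, SE 0.33, and 0.04 without REH). SCAP, the escort protein gene, was at 9.17, 9.20 and 9.35 in RS4;11, SEM and NALM6, and REH was the low line at 8.32 (difference 0.35, SE 0.40, and -0.16 without REH). The median of the 5 control genes therefore rested on single lines, at -0.25 without NALM6 and 0.85 without REH.

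The upstream sequences of SREBF2, of INSIG1, of 3 mevalonate genes and of MSMO1 are shown. SREBPs bind such promoters together with the CCAAT-binding factor NF-Y. The genes shown were picked by hand and not by a rule. INSIG1 overlapped between the groups in expression, while IDI1, SC5D and STARD4, which did not, are left out. Each stretch is the 250 bases before the RefSeq transcript start on GRCh38.p14, 5′ to 3′ on the gene's strand, and where a gene has several starts the one with the most CCAAT matches was taken. They lie at chr22:41832855-41833104, plus strand (SREBF2), chr7:155297628-155297877, plus strand (INSIG1), chr5:43313413-43313662, minus strand (HMGCS1), chr12:109573544-109573793, plus strand (MVK), chr16:88663092-88663341, minus strand (MVD) and chr4:165327419-165327668, plus strand (MSMO1). Capitals mark CCAAT, or ATTGG where it lies on the other strand, and in SREBF2 also TCACCCCAC, the core of a sterol regulatory element.
SREBF2: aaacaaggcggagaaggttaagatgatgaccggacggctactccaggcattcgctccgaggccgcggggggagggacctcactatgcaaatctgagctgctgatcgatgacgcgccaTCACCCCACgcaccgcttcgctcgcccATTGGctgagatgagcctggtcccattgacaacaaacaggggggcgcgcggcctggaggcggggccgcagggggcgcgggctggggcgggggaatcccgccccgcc
INSIG1: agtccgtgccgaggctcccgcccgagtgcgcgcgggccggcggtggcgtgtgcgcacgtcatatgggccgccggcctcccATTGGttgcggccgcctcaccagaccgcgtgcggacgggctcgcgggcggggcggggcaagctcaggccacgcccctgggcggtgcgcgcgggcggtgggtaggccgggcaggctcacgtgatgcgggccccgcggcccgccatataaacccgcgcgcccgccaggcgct
HMGCS1: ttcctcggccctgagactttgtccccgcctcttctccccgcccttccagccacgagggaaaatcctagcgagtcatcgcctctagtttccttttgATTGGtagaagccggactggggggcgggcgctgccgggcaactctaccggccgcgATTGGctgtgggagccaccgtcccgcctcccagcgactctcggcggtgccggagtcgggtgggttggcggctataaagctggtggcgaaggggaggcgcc
MVK: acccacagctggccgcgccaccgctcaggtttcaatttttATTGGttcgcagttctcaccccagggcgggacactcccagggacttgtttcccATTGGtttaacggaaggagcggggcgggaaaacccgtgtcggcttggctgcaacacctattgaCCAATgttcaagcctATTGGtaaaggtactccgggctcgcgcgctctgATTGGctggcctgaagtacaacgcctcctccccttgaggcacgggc
MVD: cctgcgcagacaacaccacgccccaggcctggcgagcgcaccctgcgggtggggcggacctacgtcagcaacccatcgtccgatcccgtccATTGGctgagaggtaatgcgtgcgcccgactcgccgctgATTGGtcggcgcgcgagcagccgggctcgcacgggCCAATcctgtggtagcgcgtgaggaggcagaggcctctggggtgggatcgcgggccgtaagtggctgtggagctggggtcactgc
MSMO1: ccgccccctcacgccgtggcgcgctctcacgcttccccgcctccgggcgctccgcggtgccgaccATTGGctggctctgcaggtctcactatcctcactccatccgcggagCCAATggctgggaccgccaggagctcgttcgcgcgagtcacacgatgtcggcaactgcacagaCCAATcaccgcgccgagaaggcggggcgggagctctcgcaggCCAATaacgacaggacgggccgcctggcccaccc

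Motifs were searched on both strands of windows from 250 bases before to 50 bases after each start, in 34 of the 39 listed genes (52 windows; HSD17B7 and NR1H2 are among them although the array gave no value) and in 27305 genes in all (35116 windows). SREBF2 was the 1 gene of the list with TCACCCCAC, which 0.43% of all windows and 0.6% of protein-coding genes hold. The looser TCACNCCAC, which includes it, was found in no further gene of the list. It was found in 1.13% of all windows and 1.51% of protein-coding genes. Other forms of the element were not searched. CCAAT was found in 23 of the 34 genes and in 27 of their 52 windows, against 34.6% of all windows and 42.1% of protein-coding genes. At least 2 CCAAT in a window were found in 14 of the 34 (41.2%) and in 14.8% of protein-coding genes. There were 5 in MVK, 4 in MSMO1 and 3 each in MVD, IDI1 and FDPS. HMGCS1, ACACA, ACLY, DHCR7, HSD17B7, MYLIP, NPC2, SCD and STARD4 had 2 each. Of the matches in IDI1, those at -132 and -129 from the start overlap and are not separate sites. Of the 14 genes, ACACA, DHCR7, MYLIP, NPC2 and SCD overlapped between the groups in expression. HSD17B7 was not measured, and the others were higher in both translocation lines. A link between CCAAT and expression was not tested. By sub-pathway, 5 of 7 mevalonate genes had at least 2, against 3 of 7 after squalene, 0 of 5 for control, 3 of 8 for transport and 3 of 7 for fatty acid synthesis.

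GGGCGG, the core of Sp1 sites, was found in all 34 genes, 45 of their 52 windows and 45.0% of all windows (64.3% of protein-coding genes), and the E-box CACGTG in 5 of the 34 genes (INSIG1, SCAP, ABCA1, SC5D and LSS) and 7.26% of all windows (10.9% of protein-coding genes). The LXR element, a direct repeat of AGGTCA with 4 bases between, was in none of the 34 genes and in 0.0199% of all windows (0.0126% of protein-coding genes). Some matches of different motifs lie beside or over each other. ACAT2, FDFT1, SQLE, ABCG1 and FASN had no entry in the promoter table. A match is a stretch of letters, and binding was not measured.

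Most mevalonate genes were higher in both translocation lines. All 8 differences were above 0 (52.9% of all genes), both translocation lines were above both comparison lines in 6 (23.0% of all genes), and 5 were higher at an unadjusted p under 0.05 (4.6% of all genes, 7.01% of genes not dim). HMGCS1, the synthase that condenses acetyl-CoA with acetoacetyl-CoA, was at 10.94 in RS4;11 and 11.24 in SEM, against 9.61 in NALM6 and 9.57 in REH. Both comparison lines lay within 0.04 of each other, and the difference was 1.50 (SE 0.15, 2.83-fold, limma adjusted p = 0.204), the largest of the sub-pathway. ACAT2, the cytosolic thiolase ahead of it, was at 10.80, 10.63, 9.71 and 9.10 in the same order of lines (difference 1.31, SE 0.26, adjusted p = 0.379). Here REH was the lowest line and the gap between the groups was 0.92.

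The kinase gene MVK, which phosphorylates mevalonate, was at 7.97 in RS4;11 and 7.57 in SEM, against 6.57 in NALM6 and 6.82 in REH (difference 1.07, SE 0.20, adjusted p = 0.359). The decarboxylase gene MVD was at 8.12, 7.90, 7.04 and 7.49 (0.74, SE 0.21, adjusted p = 0.492), and the isomerase gene IDI1 at 11.53, 11.48, 10.80 and 11.16 (0.52, SE 0.16, adjusted p = 0.517). In these 3 genes NALM6 was lowest and REH lay between it and the translocation lines. FDPS, which makes farnesyl diphosphate, had the same order at 10.06, 9.70, 9.23 and 9.51 and did not pass at the unadjusted p. PMVK, the kinase that follows MVK, had the smallest difference of these 8 genes (0.05, SE 0.23), with levels from 6.08 in REH to 6.62 in NALM6. The sign for PMVK turned with arrays centred on their medians (-0.0007). GGPS1, which leads to geranylgeranyl groups for protein prenylation and not to sterol, differed by 0.06 (SE 0.17), and its levels ran from 8.32 in NALM6 to 8.67 in REH.

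After squalene the genes divided. MSMO1, the methylsterol oxidase, SQLE, the squalene epoxidase, and SC5D, the lathosterol desaturase, were higher in both translocation lines, and LSS, CYP51A1, TM7SF2 and DHCR7 overlapped between the groups. Those higher in both lines were 42.9% of these genes, against 23.0% of all genes and 23.6% of genes not dim. In either direction the groups did not overlap in 42.8% of all genes. MSMO1 was at 12.22 in RS4;11 and 12.26 in SEM, against 10.84 in NALM6 and 10.98 in REH, and had the smallest p of the whole set (difference 1.33, SE 0.10, 2.52-fold, limma adjusted p = 0.164). SQLE was at 11.71, 11.20, 10.09 and 10.41 (1.20, SE 0.25, adjusted p = 0.395), with 0.79 between the nearest lines of the 2 groups. SC5D was at 10.78, 10.99, 10.16 and 10.51 (0.55, SE 0.18, adjusted p = 0.526), and here REH lay 0.27 below the nearer translocation line.

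The 4 overlapping genes had REH or SEM as the highest line. LSS, the cyclase that forms lanosterol, was at 9.47 in RS4;11 and 9.36 in SEM, against 9.08 in NALM6 and 9.82 in REH, a difference of -0.03 (SE 0.30) that was 0.33 without REH. In the reductase genes TM7SF2 and DHCR7 too REH was highest and NALM6 lowest, with REH at 7.58 and 10.03 and NALM6 at 6.94 and 9.52. CYP51A1, the lanosterol demethylase, was at 10.44 in SEM and between 9.75 and 9.98 in the other lines. In 6 of the 7 genes NALM6 was the lowest line (21.9% of all genes, 22.4% of genes not dim). REH was below both translocation lines in 3 of the 7 (42.6% of all genes, 41.5% of genes not dim). It was above both in 3 (33.9% of all genes, 38.0% of genes not dim), so that both counts for REH were near these shares. The median difference of these 7 genes, 0.23, became 0.58 when RS4;11 was left out, 0.14 when SEM was, 0.11 when NALM6 was and 0.38 when REH was.

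**Figure D2:**
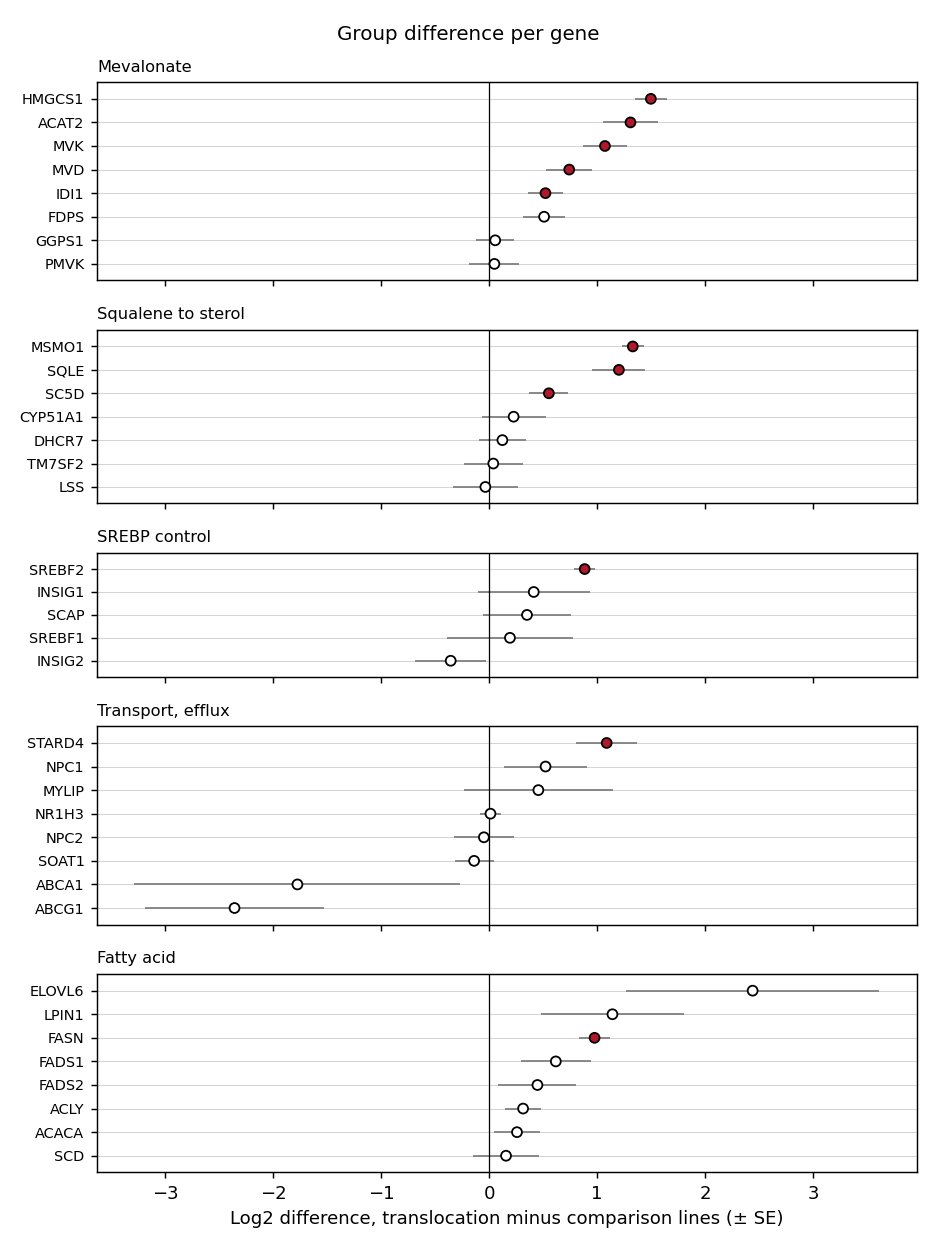
Log2 difference between the group means (translocation minus comparison lines, horizontal axis) with its SE from the limma fit, per gene and sub-pathway; n = 2 lines per group. Filled points had an unadjusted p under 0.05: 5 mevalonate genes, 3 after squalene and 1 in each of the other 3 sub-pathways, all to the right of 0.

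All 8 fatty acid genes had differences above 0 (52.9% of all genes), but 1 of the 8, FASN, passed at the unadjusted p (4.6% of all genes, 7.01% of genes not dim). FASN, the fatty acid synthase, was at 10.01 in RS4;11 and 10.30 in SEM, against 9.14 in NALM6 and 9.21 in REH, a difference of 0.98 (SE 0.14, 1.97-fold, limma adjusted p = 0.313). The enzymes ahead of it differed less. ACLY, which supplies cytosolic acetyl-CoA from citrate, differed by 0.32 (SE 0.17), and ACACA, the carboxylase, by 0.26 (SE 0.21), and in both REH was the lowest line. SCD, which makes monounsaturated fatty acids, had the smallest difference of the 8 (0.16, SE 0.31). It was at 11.29 in RS4;11 and 11.36 in SEM, against 10.79 in NALM6 and 11.55 in REH, with NALM6 lowest and REH highest as in SREBF1 and INSIG1, and the difference was -0.22 without NALM6.

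ELOVL6, the elongase of saturated and monounsaturated chains, had the widest span of the whole list. It was at 9.96 in RS4;11 and 11.25 in SEM, against 9.53 in NALM6 and 6.79 in REH. SEM exceeded REH 21.9-fold and NALM6 exceeded REH 6.67-fold, while NALM6 lay 0.43 below RS4;11, so that the difference of 2.44 (SE 1.17, adjusted p = 0.651) was 1.07 without REH and 3.81 without NALM6. LPIN1, a phosphatidate phosphatase of lipid synthesis, was at 9.78, 10.94, 8.60 and 9.84 (1.14, SE 0.66), with SEM high, NALM6 low and RS4;11 and REH between. The adjacent desaturase genes FADS1 and FADS2 differed by 0.62 (SE 0.33) and 0.45 (SE 0.36), with SEM highest at 12.32 and 11.93 and NALM6 lowest at 11.15 and 10.91. SEM was the highest line in 7 of the 8 fatty acid genes, where it is so in 22.9% of all genes, and its median deviation from the mean of the 4 lines was 0.50. The median group difference of 0.53 over the 8 genes became 0.29 when SEM was left out, 0.79 when RS4;11 was, and 0.84 when REH was.

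**Figure D3:**
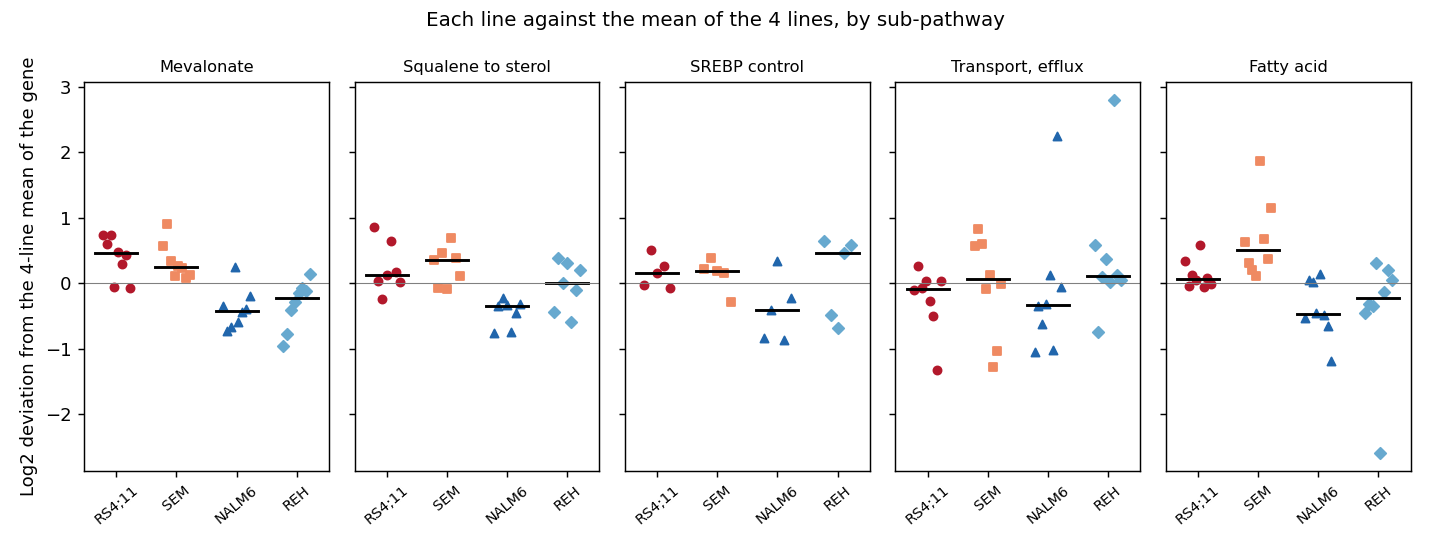
Log2 deviation of each gene from its mean over the 4 lines (vertical axis), by line and sub-pathway; 1 point per gene, bars at the median. NALM6 has a median below 0 in each panel, from -0.47 to -0.33, SEM lies highest in fatty acid synthesis at 0.50, and REH is below 0 for mevalonate genes (-0.22) and above 0 for SREBP control (0.45).

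Among the genes of uptake, transport and storage, STARD4 was higher in the translocation lines. STARD4, a soluble carrier of sterol between membranes, was at 9.12 in RS4;11 and 9.69 in SEM, against 8.52 in NALM6 and 8.11 in REH (difference 1.09, SE 0.28, limma adjusted p = 0.463), with a gap of 0.60 between the groups. The lysosomal cholesterol exporters did not separate. NPC1 was at 9.97, 10.64, 9.42 and 10.14 (0.52, SE 0.39), and NPC2 ran from 10.39 in NALM6 to 11.07 in REH (-0.05, SE 0.28). SOAT1, which esterifies cholesterol for storage, lay between 9.05 and 9.45 in all lines (-0.14, SE 0.18). MYLIP, an LXR-induced ubiquitin ligase that lowers lipoprotein receptors, was at 8.49 in RS4;11 and 9.16 in SEM, against 7.55 in NALM6 and 9.19 in REH, 3.11-fold higher in REH than in NALM6.

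The efflux transporters had the largest differences below 0, ABCG1 with both comparison lines above both translocation lines and ABCA1 through REH alone. ABCG1 was at 4.91 in RS4;11 and 5.20 in SEM, against 8.47 in NALM6 and 6.35 in REH. Both translocation lines were near the 25th percentile of the array, and NALM6 exceeded REH 4.34-fold (group difference -2.36, SE 0.83, adjusted p = 0.559, and -3.42 without REH or -1.30 without NALM6). ABCA1 was at 5.72 in RS4;11 and 4.94 in SEM, against 5.20 in NALM6 and 9.01 in REH, a difference of -1.77 (SE 1.51, adjusted p = 0.755) carried by REH and 0.13 without it. REH exceeded RS4;11, the next line, 9.77-fold. NR1H3, the gene of an LXR, was between 5.41 and 5.51 in every line, below the median of all gene values.

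**Figure D4:**
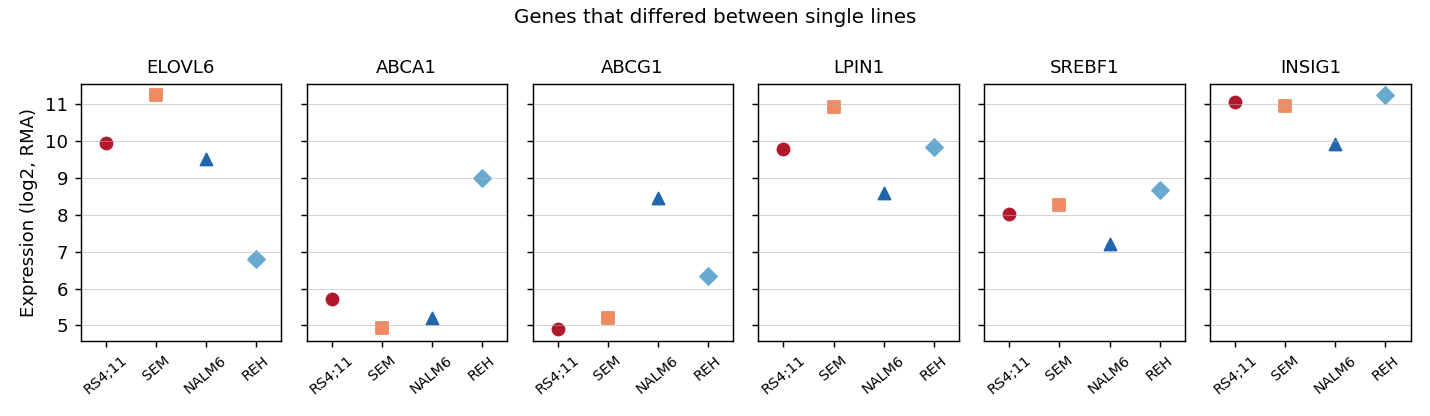
Expression (log2, vertical axis) in each line of the 4 members that span at least 2 log2 units (ELOVL6, ABCA1, ABCG1 and LPIN1), with SREBF1 and INSIG1 beside them. REH alone is high for ABCA1 and low for ELOVL6, NALM6 is highest for ABCG1 and lowest for LPIN1, SREBF1 and INSIG1.

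The comparison lines were not alike in these genes. NALM6 was the lowest of the 4 lines in 22 of the 36 (21.9% of all genes, 22.4% of genes not dim), and it lay below both translocation lines in 28 (36.0% of all genes, 37.0% of genes not dim) and above both in 3 (35.9% of all genes, 38.5% of genes not dim). REH was the lowest in 9 (33.7% of all genes, 32.6% of genes not dim), below both translocation lines in 18 (42.6% of all genes, 41.5% of genes not dim) and above both in 13 (33.9% of all genes, 38.0% of genes not dim). The median distance from the translocation mean was 0.72 for NALM6 and 0.33 for REH, where it was 0.0053 and 0.03 over all genes. For the mevalonate genes the medians were 0.84 to NALM6 and 0.44 to REH, with 7 of 8 genes in each line below both translocation lines. After squalene they were 0.38 and 0.11, and for fatty acid synthesis 0.84 and 0.47. For SREBP control and for transport REH lay above the translocation mean, at -0.25 and -0.22, and NALM6 below it, at 0.85 and 0.21. The differences between these medians were not tested.

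**Figure D5:**
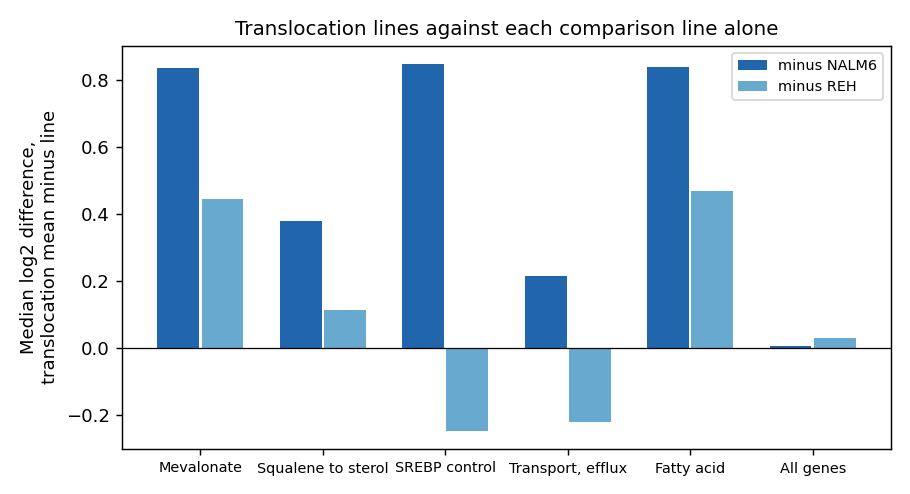
Median log2 difference (vertical axis) between the mean of the translocation lines and NALM6 (dark bars) or REH (light bars), by sub-pathway and over all 18377 genes. Both bars are above 0 for mevalonate, sterol and fatty acid genes, and the REH bar is below 0 for SREBP control (-0.25) and transport (-0.22).

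A recurring order, noticed after the values were seen, had NALM6 lowest and REH highest. It held in 10 of the 36 genes (7.37% of all genes, 8.06% of genes not dim), namely SREBF1, INSIG1, SCD, LSS, TM7SF2, DHCR7, MYLIP, NPC2, GGPS1 and NR1H3, the last over a span of 0.10. In contrast, HMGCS1, ACAT2, SREBF2, STARD4, ELOVL6 and ACLY had REH as the lowest line together with a gap between the groups, of 0.096 for ACLY. A span of at least 2 log2 units over the 4 lines was found in 4 of the 36, namely ELOVL6, ABCA1, ABCG1 and LPIN1 (7.56% of all genes, 13.4% of genes not dim). The spread within the comparison pair was also the larger one: the median absolute difference between NALM6 and REH was 0.48 over the 36 genes, that between RS4;11 and SEM 0.24, and the median absolute group difference 0.48. Over all genes these were 0.17, 0.15 and 0.15, and over genes not dim 0.27, 0.21 and 0.27.

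A further 87 measured genes of the same pathways lay closer to 0. Their list was set by function, but, like that of the 36, with earlier results of these data known. The contrast with the 36 is therefore a description and not an independent comparison. The median difference of the 87 was 0.08, 54 were above 0, and 0 passed adjusted over all genes. At an unadjusted limma p under 0.05, 7 of the 87 were higher (8.05%, against 4.6% of all genes and 7.01% of genes not dim). At that p 3 were lower (3.45%, against 4.79% of all genes and 7.72% of genes not dim). The short lists named next are to be read against these shares. Of 7 further sterol and ketone body genes 3 were higher at that p and 0 lower. These were EBP, the sterol isomerase (difference 0.68, SE 0.19), NSDHL, a sterol dehydrogenase (0.45, SE 0.13), and ERG28, a scaffold of the demethylation complex (0.38, SE 0.09), and in each both translocation lines were above both comparison lines. Of 11 isoprenoid genes 2 were higher and 0 lower, COQ2 of ubiquinone synthesis (0.67, SE 0.12) and ICMT, which methylates prenylated proteins (0.48, SE 0.14).

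Of 9 further SREBP control genes 0 were higher and 2 lower (22.2%, against 4.79% of all genes and 7.72% of genes not dim), with a median of -0.31. SPRING1, a regulator of the protease that cleaves SREBPs, was at 9.20 in RS4;11 and 9.21 in SEM, against 10.16 in NALM6 and 10.00 in REH (difference -0.88, SE 0.10, limma adjusted p = 0.256), and was thus lower where SREBF2 was higher. ERLIN1, of a complex that degrades sterol-regulated proteins of the endoplasmic reticulum, differed by -0.59 (SE 0.15). Of 28 transport and LXR genes 2 were higher and 0 lower, a share of 7.14% that is near the 7.01% of genes not dim (4.6% of all genes). LRPAP1, the chaperone of lipoprotein receptors, was at 10.09, 10.35, 9.20 and 9.73 (0.75, SE 0.24, adjusted p = 0.519). SMPDL3A, an LXR target, was at 5.70, 5.90, 4.95 and 4.83 (0.91, SE 0.12, adjusted p = 0.281), below the median of all gene values in each line. Of 32 fatty acid genes 0 were higher and 1 lower, a share of 3.12% that is below the 4.79% of all genes and 7.72% of genes not dim. The lower gene was FADS3, the neighbour of FADS1 and FADS2, at 8.90 in RS4;11 and 8.13 in SEM, against 11.60 in NALM6 and 9.91 in REH. Its difference (-2.24, SE 0.72, adjusted p = 0.522) was against the direction of both neighbours.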

How the data were processed

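Total RNA of 4 lines was profiled on 1 array each. The deposited log2 values were made by the authors with RMA and Partek, per the submitters' processing notes, and the log2 scale was inferred from the values. No version or annotation build was named. RMA quantile-normalizes arrays, which removes differences in total signal, and without detection calls signal over background is unknown.

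Of 32968 probe sets, the platform annotation gave 19310 a single symbol, 1752 more than 1, and listed none for 11906. The 18377 genes were fitted with limma 3.58.1 (lmFit, eBayes; R 4.3.3), without covariates, and p-values are two-sided and adjusted by Benjamini-Hochberg over all genes. Residual degrees of freedom were 2, those of the prior 1.34, and a gene's SE had a median of 0.14. The replicate is the line, and p-values thus reflect only how far lines differ, with culture and array effects in it. The labels name no batch. The procedure was run on simulated data with planted changes and independent values per line, which does not measure its power for these lines. Python 3.11.15, pandas 2.3.3 and matplotlib 3.10.9 were used for counts and plots.

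The members and lists were chosen with earlier results of these data known. Values by line are given for the control genes, for genes with an unadjusted p under 0.05 and groups that do not overlap, for the largest difference each way per sub-pathway and for a span of at least 2 log2 units. Of the other genes of the pathways, the rule takes the 2 largest differences each way at that p (LRPAP1, SMPDL3A, FADS3 and SPRING1), and the rest were chosen after their values were seen. Promoter sequences are RefSeq's (GRCh38.p14). Alternatives were repeated quantile normalization, centring on array medians, averaging the probe sets of a gene, leaving out dim genes (highest value below 6.75), an intensity trend, robust eBayes, all probe sets with 1 symbol, other thresholds and leaving out each line.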

Additional observations from a re-analysis of the deposited data

How the results depend on the processing

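No paired analysis was possible, since each line stands for its own leukaemia and nothing in the labels pairs lines across the groups. The median differences over the 36 genes and by sub-pathway moved by less than the spread between lines under repeated quantile normalization, centred arrays, averaged probe sets and removal of dim genes. Leaving out each line in turn gave medians of 0.27 to 0.72 over all 36 genes, 0.44 to 0.84 for mevalonate, 0.11 to 0.58 after squalene, -0.25 to 0.85 for control, -0.22 to 0.21 for transport and 0.29 to 0.84 for fatty acid genes. Genes higher at an unadjusted p under 0.05 then numbered 7 to 14 and genes lower 0 to 3, groups parted upward in 15 to 28 and downward in 3 to 13. With 1 line fewer to part, 34.7% to 42.6% of all genes parted upward and 30.6% to 35.9% downward, so that 15 of 36 without SEM (38.2% of all genes) and 13 of 36 without NALM6 (33.9%) were near these shares. At an adjusted p under 0.05 or 0.1 the count was 0, and with the groups at least 2-fold apart 2 remained higher. With an intensity trend 1 gene was lower at the unadjusted p.

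Of 26 genes named by rule, each compared under its alternatives (284 comparisons), 273 kept their direction and 11 turned sign. None passed an adjusted p of 0.05 in any of these settings. Of the 11 members under an unadjusted p of 0.05, 8 stayed under it in every setting with all lines and 5 also with each line left out. Of the 4 other genes named by rule these numbers were 3 and 2, LRPAP1 passing over it with all lines and FADS3 with a line left out. With centred arrays PMVK turned (-0.0007). Leaving out each line gave ranges of -0.22 to 0.32 for PMVK, -0.40 to 0.33 for LSS, -0.55 to 0.93 for SREBF1, -0.16 to 0.86 for SCAP, -0.25 to 1.08 for INSIG1, -0.75 to 0.044 for INSIG2, -3.68 to 0.13 for ABCA1 and -0.22 to 0.54 for SCD. The causes were not tested. The number of arrays limits the precision, and values near 5 are a compressed measure of low levels.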

Other observations

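Several further lipid genes differed widely between lines, and were chosen here after their values were seen. The lipoprotein receptor gene VLDLR was at 9.49 in RS4;11 and 9.15 in SEM, against 11.40 in NALM6 and 5.09 in REH, 79.6-fold higher in NALM6 than in REH. LRP1, a related receptor gene, was at 5.42, 5.51 and 5.52 in RS4;11, SEM and NALM6 and at 7.98 in REH, the line in which ABCA1 was also highest. ELOVL2, an elongase of polyunsaturated fatty acids, was at 4.93 in RS4;11 and 6.58 in SEM, against 7.84 in NALM6 and 10.08 in REH. REH thus had the highest level of this elongase and the lowest of ELOVL6. In ELOVL2 both translocation lines were also below both comparison lines, with a gap of 1.26 (19.8% of all genes were lower in both). Its group difference of -3.21 (SE 1.08, limma adjusted p = 0.536) was larger in size than any among the 36 genes. CPT1A, which admits fatty acids to mitochondria for oxidation, was at 8.43 in RS4;11 and 5.47 in SEM, against 9.73 in NALM6 and 7.09 in REH, with SEM, the highest line for 7 of 8 fatty acid synthesis genes, at the lowest level.

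RXRA, the partner of LXRs, and ACSS2, an acetyl-CoA synthetase, also had NALM6 as the lowest line and REH as the highest. RXRA was at 6.68 in RS4;11 and 6.67 in SEM, against 5.40 in NALM6 and 8.18 in REH, and ACSS2 at 8.30, 7.95, 6.72 and 8.38. Such a span of at least 2 log2 units was found in 8 of the 87 further pathway genes (9.2%) and in 4 of the 36 (11.1%). The share was 7.56% of all genes and 13.4% of genes not dim. With 1 array per line, none of these differences between single lines has a replicate check.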
